A study of Mus musculus with 20 samples.

Results

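Cerebellins are small secreted proteins of the C1q family, and delta glutamate receptors are the postsynaptic proteins that hold them at the synapse. The genes Cbln1, Cbln2, Cbln3 and Cbln4, the delta receptor gene Grid1 and Grid2ip, which codes for the delta receptor scaffold delphilin, were looked up by symbol among the 29200 gene IDs of the count table, and all 6 were found. Averaged over the 20 libraries, 4 of them reached 50 counts and were among the 12153 genes tested, whereas Cbln2 and Cbln4 lay under this limit and are described by their counts.

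RNA-seq was performed on the cerebellum of 20 C57BL6/N mice, with 5 mice in each of 4 groups. The 304Q/304Q mice carried the 304Q repeat expansion in both alleles of the endogenous Atxn3 gene, the gene of spinocerebellar ataxia type 3 (SCA3), under its own regulatory elements, and were analysed at 2 and at 12 months of age. The WT/WT mice of both ages carried no expansion. According to the study, the sequenced mice were males, and the expanded repeat holds CAA among its CAG codons. The labels name ataxin-2 for the wild-type alleles, whereas the methods describe Atxn3 throughout.

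Granule cells, the most numerous neurons of the cerebellum, send parallel fibres to the dendrites of Purkinje cells, the output neurons of the cerebellar cortex. Cbln1 is released from parallel fibres and joins presynaptic neurexins to postsynaptic delta receptors, so that a trans-synaptic bridge keeps the contact in place. Cbln3 is made by the same granule cells and is secreted together with Cbln1, and delphilin binds delta receptors inside the Purkinje cell spine through its PDZ domain.

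Between 11385380 and 27636687 reads were counted per library. Normalised counts, used below, are counts scaled by edgeR's TMM factors to the mean library size. All 12 markers of granule cells and all 12 of Purkinje cells passed the limit on low counts in these cerebella. Choroid plexus markers stood apart in 6 libraries: their sum was 413 to 2106 CPM there and 22.8 to 42.9 CPM in the other 14, with Ttr, Kl, Clic6 and Otx2 above 0 in all libraries. The 6 libraries were replicate 3 of the 2-month 304Q/304Q mice, replicates 1, 2 and 5 of the 12-month WT/WT mice and replicates 1 and 3 of the 12-month 304Q/304Q mice. Results are therefore also given without them, where fewer mice were left. In whole tissue, fewer cells of a type and less RNA per cell cannot be told apart.

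The cerebellins are relatives of similar coding length that can still be told apart by sequence. Bases close to the end of the coding sequence of 3 of them, which code for the end of the C1q domain, are printed below, and Cbln2 is not shown. They were picked as the ungapped 60 bases within 1 exon with the most bases of Cbln3 and Cbln4 identical to Cbln1. The stretch therefore understates how far the whole coding sequences have diverged. Each stretch of 60 bases is printed 5′ to 3′ on the coding strand of GRCm38, with capitals where a base differs from Cbln1.
Cbln1: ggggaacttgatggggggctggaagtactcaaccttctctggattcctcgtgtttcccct
Cbln3: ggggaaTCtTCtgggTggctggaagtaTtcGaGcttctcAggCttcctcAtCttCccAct
Cbln4: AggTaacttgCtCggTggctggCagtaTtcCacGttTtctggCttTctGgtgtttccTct
The stretches lie on the minus strand at chr8:87470258-87470317, chr14:55882984-55883043 and chr2:172037374-172037433, and Cbln3 and Cbln4 each differ from Cbln1 at 14 of the 60 bases.

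Over their whole coding sequences of 579 and 591 bases, Cbln1 and Cbln3 were identical at 67.6% of 553 aligned bases. The 6 pairs of cerebellins were identical at 61.9% (Cbln3 and Cbln4) to 73.3% (Cbln1 and Cbln2) of their aligned coding bases. The longest run shared by any pair was 21 bases, which is shorter than the sequenced reads.

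In GRCm38, the Cbln1 gene lies on the minus strand at chr8:87468405-87472609, Cbln3 on the minus strand at chr14:55878913-55884392 and Cbln4 on the minus strand at chr2:172036233-172043466. Cbln2 lies on the plus strand at chr18:86711110-86718283. Grid1 spans chr14:34820108-35583379 on the plus strand, and Grid2ip chr5:143357338-143392152 on the plus strand. Grid2ip shares 645 exon bases with the antisense gene Gm20635, which had 89 counts in all 20 libraries together, and no other member shared exon bases with another counted gene. Whether the counting used the strand is not stated.

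The 6 genes fell into 3 ranges of expression. Per length of exon, Cbln3 had 446 CPM per kb on average over the 20 libraries (range 398 to 535) and Cbln1 385 CPM per kb (range 300.4 to 499), which placed them at ranks 34 and 40 among 12140 tested genes with a known length. Both are thus among the most abundant transcripts of the cerebellum. Their ranges overlap, but Cbln3 was above Cbln1 in each of the 20 libraries. With the shortest annotated coding transcript as length, the levels were 1511 CPM per kb for Cbln3 and 688 CPM per kb for Cbln1. Grid2ip followed at 11.3 CPM per kb (6.36 to 14.0; rank 4312), and Grid1 at 5.78 CPM per kb (4.71 to 6.58; rank 6959). The ranges of Grid2ip and Grid1 overlapped through the lowest Grid2ip library, a 12-month 304Q/304Q mouse, and within each of the 20 libraries Grid2ip was above Grid1. Cbln4 had 0.204 and Cbln2 0.0197 CPM per kb.

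**Figure D1:**
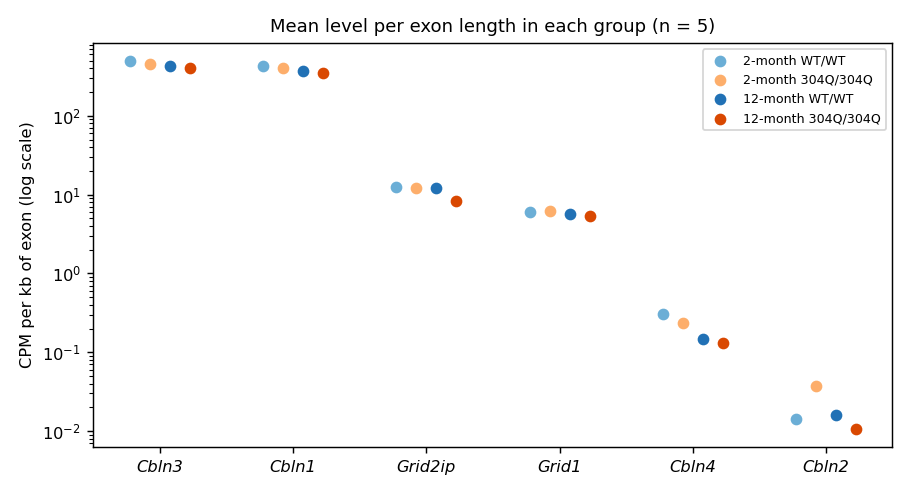
Mean level of each gene in the 4 groups, in CPM per kilobase of exon on a log axis, with 1 point per group (n = 5 mice). The group means of Cbln3 run from 410 to 495 and those of Cbln1 from 344 to 426 CPM per kb, those of Grid2ip from 8.41 to 12.4 and of Grid1 from 5.34 to 6.17, and those of Cbln4 and Cbln2 lie from 0.0108 to 0.302.

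Cbln1, the cerebellin that bridges parallel fibres and Purkinje cell spines, did not pass the test in any comparison, although its mean was lower at 12 than at 2 months in both genotypes. In 2-month WT/WT mice, Cbln1 had 15177, 17913, 17555, 21658 and 20152 normalised counts (replicates 1 to 5). The 2-month 304Q/304Q mice had 16889, 17644, 16369, 18682 and 18085 normalised counts of Cbln1, all within the range of the WT/WT mice. At 12 months, the values were 13592, 16839, 15388, 18272 and 15329.9 in WT/WT mice and 14805, 14834, 16618, 15511 and 13049 in 304Q/304Q mice. The group means were 18491 ± 2499, 17534 ± 923, 15884 ± 1762 and 14964 ± 1298 in this order (SD, n = 5), and every pair of groups overlapped. Between genotypes, the log2 fold change of Cbln1 was −0.08 at 2 months (SE 0.081, adjusted p = 0.950) and −0.09 at 12 months (SE 0.0811, adjusted p = 0.523). With age it was −0.22 in WT/WT mice (SE 0.0811, adjusted p = 0.0785) and −0.23 in 304Q/304Q mice (SE 0.0811, adjusted p = 0.0951). The intervals of 2 SE for the age changes, −0.38 to −0.06 and −0.39 to −0.07, lay below 0, and both age changes passed with surrogate variables in the model, with adjusted p-values of 0.00098 for WT/WT and 1.98e-06 for 304Q/304Q mice (edgeR). So did the genotype difference of Cbln1 at 12 months, at −0.20 (adjusted p = 0.00938). Without the 6 libraries with choroid plexus RNA, none of these passed: the age change of Cbln1 was −0.14 in WT/WT mice (adjusted p = 0.419) and −0.31 in 304Q/304Q mice (adjusted p = 0.0983), and the genotype difference at 12 months was −0.22 (adjusted p = 0.248).

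Cbln3, which is found in granule cells and secreted with Cbln1, was lower at 12 than at 2 months in both genotypes. The 2-month WT/WT mice had 33313, 33325, 33574, 37238 and 34829 normalised counts of Cbln3. In 12-month WT/WT mice these were 28012, 31857, 29540.3, 31631 and 28619, so that each old mouse lay below each young one. In WT/WT mice, Cbln3 fell by 0.20 on the log2 scale between the ages (SE 0.0418, adjusted p = 0.00335), from 34456 ± 1677 to 29932 ± 1744 normalised counts (SD, n = 5). The 304Q/304Q mice had 31479, 31462, 30250.1, 30178 and 33547 normalised counts at 2 months and 28786, 28674, 28008, 29356 and 27723 at 12 months, and here too the ages did not overlap. Their log2 fold change with age was −0.14 (SE 0.0418, adjusted p = 0.0425), with means of 31383 ± 1363 and 28509 ± 650.0 (SD, n = 5). The difference between both age changes, 0.06 on the log2 scale (SE 0.0591), did not pass (adjusted p = 0.616). Without the 6 libraries with choroid plexus RNA, the age change of Cbln3 was −0.17 (adjusted p = 0.0684) for WT/WT mice and −0.15 (adjusted p = 0.149) for 304Q/304Q mice, and neither passed. With all libraries these changes were −0.20 and −0.14. Fewer mice were left without the 6 libraries: of the 12-month mice, replicates 3 and 4 (WT/WT) and 2, 4 and 5 (304Q/304Q). The choroid plexus markers themselves were higher at 12 months in WT/WT mice for 2 of 4 tested, and their part in the result was not tested. In 304Q/304Q mice the call was also lost when replicate 1, 2 or 5 of the 2-month mice or any replicate of the 12-month 304Q/304Q mice was left out, with adjusted p-values up to 0.136.

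Between genotypes, Cbln3 did not pass. At 2 months, 4 of 5 304Q/304Q mice lay below all 5 WT/WT mice, and the log2 fold change was −0.13 (SE 0.0418, unadjusted p = 0.00363, adjusted p = 0.584). With surrogate variables, the same log2 fold change of Cbln3 at 2 months was −0.15 and passed (adjusted p = 0.0421 in edgeR). At 12 months it was −0.07 (SE 0.0418, adjusted p = 0.286).

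Grid1 codes for the delta receptor found in many brain regions and, in the cerebellum, mainly in interneurons and glia. Its means were 508 ± 44.9 and 526 ± 21.4 normalised counts in 2-month WT/WT and 304Q/304Q mice and 482 ± 35.6 and 455 ± 64.9 at 12 months (SD, n = 5). The 12-month 304Q/304Q mice were the most variable group, with 402, 561, 433, 409 and 471 normalised counts, and replicate 2 was above all 5 WT/WT mice of that age. No comparison of Grid1 passed. The log2 fold changes between genotypes were 0.05 at 2 months (SE 0.0846, adjusted p = 0.962) and −0.08 at 12 months (SE 0.0859, adjusted p = 0.563). With age, Grid1 had a log2 fold change of −0.07 in WT/WT mice (adjusted p = 0.605) and −0.21 in 304Q/304Q mice (SE 0.0851, adjusted p = 0.155). Without replicate 2 of the 12-month 304Q/304Q mice, the latter was −0.30 and passed (adjusted p = 0.0243). Of 20 fits with a library left out, only this 1 passed. With surrogate variables the change was −0.24 and passed (adjusted p = 0.0456 in edgeR). Without the libraries with choroid plexus RNA it was −0.15 and did not pass (adjusted p = 0.565).

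Grid2ip, coding for delphilin of the Purkinje cell spine, differed between genotypes at 12 months. The 2-month mice had 1291, 1103, 1128, 1279 and 1205 normalised counts (WT/WT) and 1122, 1338, 1216, 957 and 1266 (304Q/304Q). At this age the groups overlapped, and the log2 fold change was −0.03 (SE 0.106, interval of 2 SE −0.24 to 0.19, adjusted p = 0.986). At 12 months, the values were 1134, 1354, 1048, 1106 and 1196 in WT/WT mice and 852, 787, 617, 757 and 1063 in 304Q/304Q mice. Thus 4 of 5 old 304Q/304Q mice lay below every WT/WT mouse, and replicate 5 lay just above the lowest of them. The mean was 815 ± 163 against 1168 ± 117 normalised counts (SD, n = 5), and Grid2ip fell by 30.1% (log2 fold change −0.52, SE 0.107, adjusted p = 0.00208, edgeR's quasi-likelihood test). Grid2ip also reached the size of 0.5 on the log2 scale that the study asked of a differentially expressed gene (DEG), as 1.83% of all genes did in the lower direction. When each of the 20 libraries was left out in turn, the log2 fold change of Grid2ip ran from −0.63 to −0.43 and the adjusted p from 0.000111 to 0.00842. It fell short of the DEG size without replicate 2 of the 12-month WT/WT mice (−0.46), without replicate 3 (−0.43) or 4 (−0.49) of the 12-month 304Q/304Q mice, and with the trend of GC content and length removed (−0.44).

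With age, Grid2ip fell by 30.8% in 304Q/304Q mice (log2 fold change −0.53, SE 0.107, adjusted p = 0.00200), again past the DEG size, as did 0.913% of all genes in the lower direction. The change was under the DEG size without replicate 2 of the 2-month (−0.48) or replicate 3 of the 12-month (−0.45) 304Q/304Q mice. With surrogate variables it was −0.47 in both DESeq2 and edgeR, which passed (adjusted p = 9.68e-07 and 4.95e-05) but was also under the DEG size. In WT/WT mice the log2 fold change was −0.04 (SE 0.106, adjusted p = 0.844). The test of the difference between the genotypes' age changes gave −0.49 on the log2 scale (SE 0.151, unadjusted p = 0.00340) and did not pass after adjustment (adjusted p = 0.0967). DESeq2 gave an adjusted p of 0.0474 for the same difference, and edgeR one of 0.0154 without replicate 5 of the 12-month 304Q/304Q mice. The difference thus passed in 1 of 20 fits with a library left out and in 1 of 10 other alternatives. With surrogate variables in DESeq2 it was −0.36 and did not pass (adjusted p = 0.122).

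The 12-month difference of Grid2ip was smaller without the 6 libraries with choroid plexus RNA. It was then −0.31 on the log2 scale with an adjusted p of 0.196, with 1048 and 1106 normalised counts left in WT/WT mice and 787, 757 and 1063 in 304Q/304Q mice. The age change in 304Q/304Q mice was −0.43 (adjusted p = 0.0529) without these libraries. The summed choroid plexus markers ranged from 30.5 to 2106 CPM in 12-month WT/WT and from 27.3 to 1505 CPM in 12-month 304Q/304Q mice, and none of the 4 tested markers passed between these groups. Their part in the result was not tested. With 3 surrogate variables, the difference was −0.36 and passed (adjusted p = 0.0173), without reaching the DEG size.

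**Figure D2:**
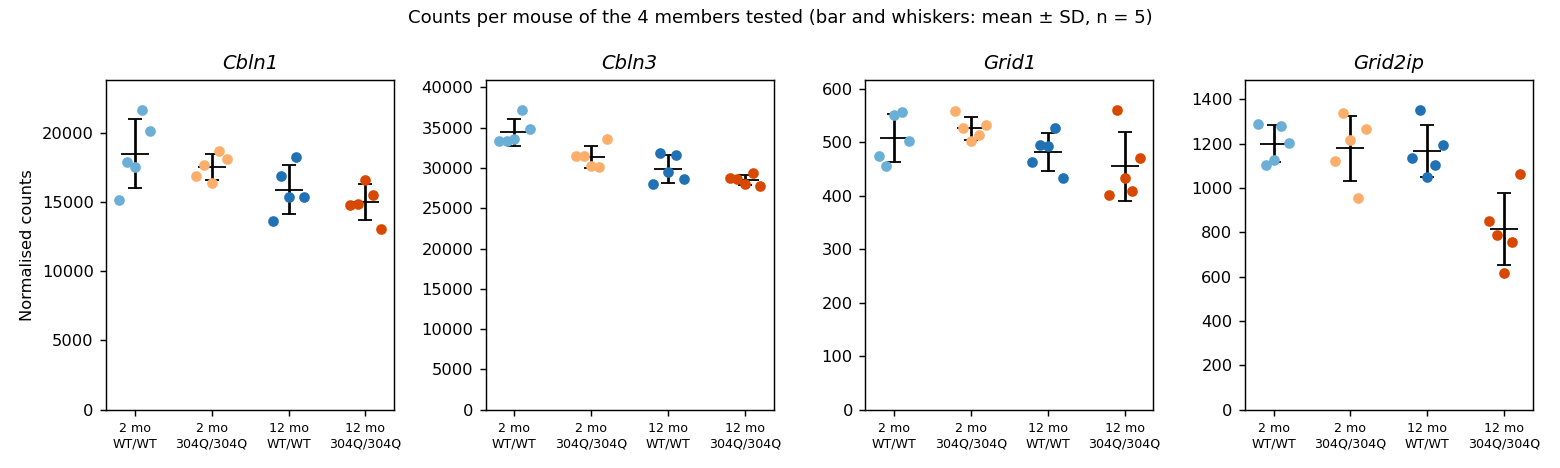
Normalised counts of Cbln1, Cbln3, Grid1 and Grid2ip in each mouse (points), with the mean and SD of each group of 5 (bar and whiskers), on axes that start at 0. Grid2ip is at 617 to 1063 in 12-month 304Q/304Q mice and at 957 to 1354 in the other groups, and Cbln3 is lower in the 12-month than in the 2-month mice of either genotype.

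Of the 4 members tested, 0 passed at 2 months between genotypes (edgeR; 1 at an unadjusted p under 0.05, 0 in DESeq2 and 1 in DESeq2 with surrogate variables), against 0.0494% of all genes. At 12 months, 1 passed and was lower, where 12.5% of all genes passed in either direction and 7.3% lower. With age, 1 of 4 passed lower in WT/WT mice, where 5.42% of all genes were lower and 11.5% passed in all, and 2 of 4 in 304Q/304Q mice, where 4.18% were lower and 7.26% passed in all. For the interaction, 0 passed in edgeR (1 at an unadjusted p under 0.05, 1 in DESeq2), against 1.95% of all genes. The ages did not overlap for Cbln3 in either genotype, which held for 6.57% of all genes in WT/WT mice and 7.8% in 304Q/304Q mice. Each genotype comparison shares its mice with the age comparisons, so that these counts are not independent.

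**Figure D3:**
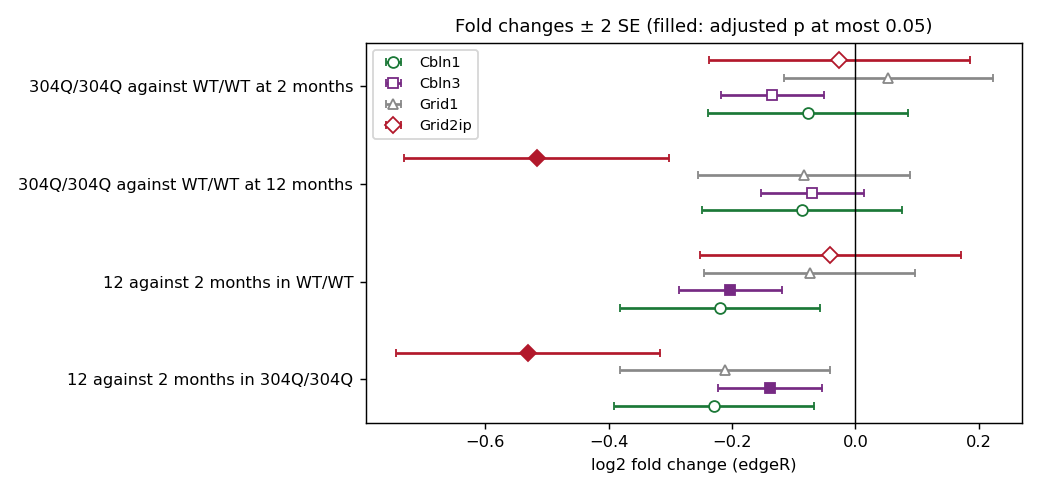
Log2 fold changes of the 4 members tested in the 2 genotype and the 2 age comparisons, with whiskers of 2 SE from edgeR, where filled symbols have an adjusted p of at most 0.05. Grid2ip stands at −0.52 and −0.53 in the comparisons that hold the 12-month 304Q/304Q mice, and Cbln3 is the filled symbol at −0.20 and −0.14 with age.

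Cbln2 and Cbln4, which are known mainly from other brain regions, were close to the limit of detection. Cbln2 had 17 counts in the 20 libraries together, 12 libraries had 0, and the highest had 4. Its summed level of 0.0594 CPM has an exact Poisson interval of 0.0346 to 0.0951, which covers counting error only. By group, Cbln2 had 3, 9, 3 and 2 counts in 2-month WT/WT, 2-month 304Q/304Q, 12-month WT/WT and 12-month 304Q/304Q mice. Differences between groups were not detectable at this depth.

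Cbln4, which binds neurexins and also the netrin receptor Dcc, had 168 counts. The 2-month WT/WT mice had 20, 12, 2, 9 and 16 counts and the 2-month 304Q/304Q mice 15, 5, 17, 12 and 6. At 12 months there were 2, 17, 0, 6 and 5 counts in WT/WT mice and 1, 11, 6, 6 and 0 in 304Q/304Q mice. Summed over the group, Cbln4 had 0.865 CPM (exact Poisson interval 0.659 to 1.12) and 0.645 (0.486 to 0.839) at 2 months, and 0.444 (0.300 to 0.634) and 0.369 (0.237 to 0.550) at 12 months. The intervals of the WT/WT mice at 2 and 12 months do not overlap, but they leave out the spread between mice, which ran from 2 to 20 and from 0 to 17 counts. Tested without a limit on low counts, neither gene passed in any of the 5 comparisons.

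The Purkinje and granule cell markers give the level of each member beside that of the cells known to express it. At 12 months, 10 of 12 Purkinje cell markers were lower in 304Q/304Q mice (median log2 fold change −0.36, all genes −0.00386), among them Rgs8, a regulator of G protein signalling, at −0.53, Gng13, a G protein subunit, at −0.67, and the phosphatase inhibitor gene Ppp1r17 at −0.36. Of all genes, 7.3% were lower, and without the 6 libraries with choroid plexus RNA 8 of the 12 markers passed. The mean log2 CPM of the 12 markers was 8.26 ± 0.0229 in 12-month 304Q/304Q and 8.64 ± 0.0524 in 12-month WT/WT mice (SD, n = 5), with no overlap. Grid2ip minus this mean was −2.44 ± 0.281 and −2.29 ± 0.140 on the log2 scale, a difference of −0.15 that did not pass (2-sided exact permutation test, p = 0.302; adjusted over 12 tests p = 0.905). With 5 mice a group, 1 comparison alone could not pass this test after adjustment over 12 tests, whatever its size. The test therefore could not show whether Grid2ip changed beyond the markers of its cell type. Between 12-month 304Q/304Q mice, Grid2ip had an SD of 0.284 in log2 CPM and a ratio of 1.72 between the highest and lowest normalised count. At 2 months, 0 of 12 Purkinje cell markers passed (edgeR; 0 at an unadjusted p under 0.05, and 0 in DESeq2 with or without surrogate variables).

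With age in 304Q/304Q mice, 8 of 12 Purkinje cell markers were lower (median log2 fold change −0.29), among them Rgs8 at −0.44, Ppp1r17 at −0.28 and Calb1 at −0.29, where 4.18% of all genes were lower. Without the libraries with choroid plexus RNA, 5 of the 12 passed. Grid2ip relative to the 12 markers changed by −0.27 (exact permutation p = 0.119, adjusted p = 0.714). In WT/WT mice, 3 of 12 were higher at 12 months, among them Pcp2 at 0.37 and Slc1a6 at 0.19. Of all 12153 genes tested, 739 passed as higher with age in WT/WT mice, and 11.5% passed in all. Grid2ip relative to the 12 markers changed by −0.11 in WT/WT mice (exact permutation p = 0.198, adjusted p = 0.794). The smallest p that 5 against 5 mice allow is 0.00794. After adjustment over 12 tests it does not pass unless other tests reach similarly small values.

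Among granule cell markers, 6 of 12 were lower and 1 higher at 12 than at 2 months in WT/WT mice (median log2 fold change −0.24), where 5.42% of all genes were lower and 11.5% passed in all. Without the 6 libraries with choroid plexus RNA 2 of these markers passed, and 5 did in DESeq2 with surrogate variables. The vesicular glutamate transporter gene Slc17a7 was at −0.21, the cadherin gene Fat2 at −0.35, the metabotropic receptor gene Grm4 at −0.32, and the transcription factor gene Neurod2 at 0.27. Relative to the mean of these 12 markers, Cbln3 changed by −0.01 with age in WT/WT mice (exact permutation p = 0.857, adjusted p = 0.937) and by −0.01 in 304Q/304Q mice (exact permutation p = 0.817, adjusted p = 0.937). Cbln1 relative to the list changed by −0.03 in WT/WT mice (exact permutation p = 0.873, adjusted p = 0.937) and by −0.10 in 304Q/304Q mice (exact permutation p = 0.111, adjusted p = 0.714). The limit given above for the adjusted p-values of this test applies here too. Of the 12 granule cell markers, 3 passed with age in 304Q/304Q mice, all lower, where 4.18% of all genes were lower and 7.26% passed in all. These were Grm4 at −0.93, Slc17a7 at −0.14 and Fat2 at −0.24. Without the libraries with choroid plexus RNA 1 passed, and in DESeq2 with surrogate variables 7 did. Between genotypes at 12 months, Grm4 (−0.90) and Calb2 (0.53) passed, where 12.5% of all genes did. At 2 months, Calb2 (0.37) passed, where 0.0494% of all genes did. Without the libraries with choroid plexus RNA, 2 granule cell markers passed at 12 months and 0 at 2 months.

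**Figure D4:**
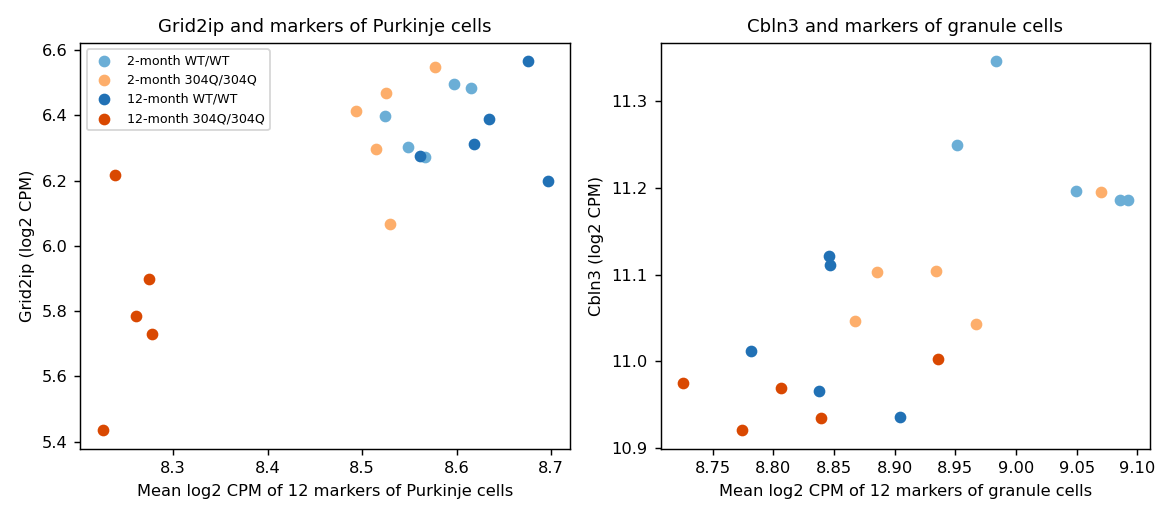
Grid2ip against the mean of 12 Purkinje cell markers (left) and Cbln3 against the mean of 12 granule cell markers (right), in log2 CPM, with 1 point per mouse coloured by group. The 12-month 304Q/304Q mice lie apart on the Purkinje marker axis at 8.23 to 8.28, while their Grid2ip varies by a ratio of 1.72. In the right panel the 12-month mice of each genotype have lower Cbln3 than its 2-month mice.

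The deviations of Cbln1 and Cbln3 from their group means were related over all 20 mice. After removal of the group means from log2 CPM, Pearson's r was 0.70 over 20 mice (permutation within groups, p = 0.00249, adjusted over 6 pairs p = 0.0149) and Spearman's rho 0.67 (permutation p = 0.00521, adjusted p = 0.0313). Without the 2 mice farthest from the median of Cbln1, r was 0.63. By group, r was 0.85 and 0.92 in 2- and 12-month WT/WT mice and 0.22 and 0.36 in 2- and 12-month 304Q/304Q mice, which rests on 5 mice each and was not tested. The other 5 pairs of members did not pass, with Pearson's r from −0.32 (Cbln1 and Grid2ip) to 0.38 (Cbln3 and Grid1; permutation p = 0.0741, adjusted p = 0.222). With surrogate variables removed, r of Cbln1 and Cbln3 was 0.61 and did not pass (adjusted p = 0.0990), and it also did not pass without replicate 1 of the 12-month WT/WT mice.

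**Figure D5:**
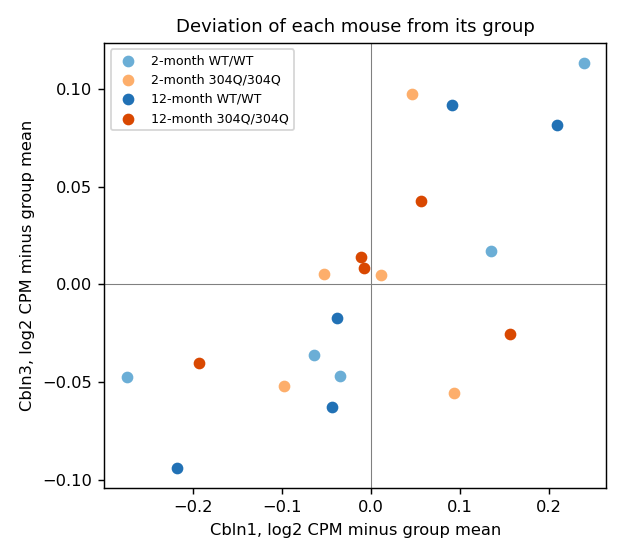
Deviation of each mouse from the mean of its group for Cbln1 (horizontal axis) and Cbln3 (vertical axis), both in log2 CPM, with 20 mice coloured by group. The points run from the lower left to the upper right, with r = 0.70 over all mice and 0.22 and 0.36 within the 304Q/304Q groups.

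Over all 20 libraries, group differences included, the genes most alike to each member were named as a description. Cbln1 was most alike to Fam131b (Pearson's r = 0.88), Atp6v0e2 (0.85) and Tmem163 (0.84). Cbln3 was most alike to Mybpc3 (0.88), Fam131b (0.88) and Megf11 (0.87), so that Fam131b was shared by both cerebellins. Among the genes most alike to Grid1 were Cntn2 (0.77) and Dscaml1 (0.75), and Grid2ip was most alike to Arhgef33 (0.93), the GABA-B receptor subunit gene Gabbr2 (0.93) and Mprip (0.92). These libraries share groups, depth and tissue, and the correlations carry no test.

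The genes that work with cerebellins and delta receptors were considered in 4 lists of 36 genes, of which 32 were tested. At 2 months, 0 of 32 passed between genotypes (edgeR; 0 at an unadjusted p under 0.05, 0 in DESeq2 with or without surrogate variables). At 12 months, 7 passed, 4 lower and 3 higher, and 3 passed without the libraries with choroid plexus RNA. With age, 10 passed in WT/WT mice (9 lower) and 3 in 304Q/304Q mice (all lower). The same background shares apply, 12.5%, 11.5% and 7.26% of all genes in either direction. Between genotypes at 12 months, 7.3% of all genes were lower and 5.23% higher. With age, 5.42% were lower in WT/WT mice and 4.18% in 304Q/304Q mice.

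Among the presynaptic and axonal partners of cerebellins, 4 were tested, among them the neurexin genes Nrxn2 and Nrxn3 and the Dcc relative Neo1. None of the 4 passed between genotypes at 12 months (edgeR; 0 at an unadjusted p under 0.05, 0 in DESeq2), with Neo1 at a log2 fold change of 0.07 (SE 0.0567, adjusted p = 0.453). At 2 months, Neo1 was at 0.06 and did not pass either. With age, Nrxn3 was lower in WT/WT mice (−0.21, adjusted p = 0.0264), whereas in 304Q/304Q mice its value of −0.10 did not pass. The list's median log2 fold change between genotypes at 12 months was 0.07, with −0.00386 over all genes tested.

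Of 9 scaffold genes of delta receptors and of the spine around them, 3 were lower and 1 higher in 304Q/304Q mice at 12 months. Of all genes, 7.3% were lower and 5.23% higher at that age. Homer3, the Homer protein of Purkinje cells that links metabotropic glutamate receptors to calcium stores, fell by 0.52 on the log2 scale (SE 0.0693, adjusted p = 1.2e-05). The Shank scaffolds Shank2 (−0.31, adjusted p = 0.00122) and Shank1 (−0.17, adjusted p = 0.0204) were lower, and Gopc, a Golgi-associated PDZ protein, was higher (0.38, adjusted p = 0.00653). Without the libraries with choroid plexus RNA, Homer3 was at −0.64 and passed (adjusted p = 0.000757), while Shank2 (−0.22, adjusted p = 0.110), Shank1 (−0.07, adjusted p = 0.521) and Gopc (0.44, adjusted p = 0.0569) did not. Homer3 was the gene of these lists whose age change differed between the genotypes (interaction −0.48, SE 0.098, adjusted p = 0.00705).

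With age in 304Q/304Q mice, Shank2 (−0.37, adjusted p = 0.000228) and Homer3 (−0.29, adjusted p = 0.0104) were lower. In WT/WT mice, 3 scaffold genes were lower at 12 months, namely Gopc (−0.48, adjusted p = 0.00141), Dlg2, also known as PSD-93 (−0.23, adjusted p = 0.0128), and the tyrosine phosphatase gene Ptpn4 (−0.75, adjusted p = 0.0438). Of all genes, 4.18% were lower with age in 304Q/304Q mice and 5.42% in WT/WT mice. The median of the 9 genes was 0.03 for the genotype at 12 months and −0.09 for age in WT/WT mice. At 2 months, Ptpn4 (−0.25) and Dlg2 (−0.09) had the largest values and did not pass.

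C1q-like proteins are relatives of cerebellins, of which C1ql1 comes from climbing fibres and acts through the adhesion receptor Adgrb3. Of 5 genes of this list tested, Adgrb1 was lower in 304Q/304Q mice at 12 months (−0.30, SE 0.0771, adjusted p = 0.0120), where 7.3% of all genes were lower. In WT/WT mice, Adgrb1 was higher (0.30, adjusted p = 0.0149) and Adgrb2 lower (−0.42, adjusted p = 0.000683) at 12 months, and Adgrb2 was also lower with age in 304Q/304Q mice (−0.39, adjusted p = 0.000726). The interaction of Adgrb1 was −0.32 and did not pass (adjusted p = 0.142). At 2 months, the largest values were those of C1ql3 (−0.27) and C1ql1 (0.15), neither of which passed. C1ql2 lay under the limit with 181 counts, and C1ql4 was not analysed here.

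Of the 14 other synaptic organizers tested, 2 were higher in 304Q/304Q mice at 12 months, against 5.23% of all genes. These were Flrt3, a ligand of latrophilins (0.55, SE 0.104, adjusted p = 0.000856), and Nlgn1, a postsynaptic neurexin partner (0.39, SE 0.105, adjusted p = 0.0157). Without the libraries with choroid plexus RNA, Flrt3 was at 0.61 (adjusted p = 0.0182), and Nlgn1 at 0.46 did not pass (adjusted p = 0.0837). With age in WT/WT mice, 4 were lower, against 5.42% of all genes. These were the receptor phosphatase gene Ptprd (−0.35), the latrophilin genes Adgrl3 (−0.38) and Adgrl2 (−0.32), and Lrrtm3 (−0.35). None of the 14 passed with age in 304Q/304Q mice (edgeR; 2 at an unadjusted p under 0.05, 0 in DESeq2 and 1 in DESeq2 with surrogate variables), where Lrrtm1 (−0.32) and Flrt2 (−0.23) had the largest values. The genotypes' age changes were not shown to differ for any of them.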

How the data were processed

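Libraries of polyA RNA were aligned by the authors with STAR (GRCm38) and counted with Rsubread, and the deposited raw counts of 29200 gene IDs were used without change. The study itself used DESeq2 with surrogate variables. Here, edgeR 4.0.16 (R 4.3.3) with TMM scaling and 1 mean per group was fitted to 12153 genes whose counts averaged 50 or more, and quasi-likelihood p-values were adjusted by Benjamini-Hochberg over all of them. Totals were 11385380 to 27636687 counts a library. For log2 CPM, 2 counts were added as prior. The coefficient of biological variation common to all genes was 0.113. The tests used a spread estimated for each gene, so that the precision differed between genes. GENCODE M21 annotated 29138 IDs. Alternatives were DESeq2 1.42.0, 3 surrogate variables (sva 3.50.0), other filters and scaling, a replicate block and each library left out. In simulated counts of 12106 genes for the 12-month genotype comparison, 46 of 64 genes changed by 0.5, 65 of 65 by 1 and 71 of 71 by 1.5 on the log2 scale were found, with 7 false calls. No replicates agreed within sampling noise (chi-square per degree of freedom at least 3.90). The labels do not say whether mice shared litters. All 6 members were named in every comparison, and of each list the genes that passed (at most the 4 with the smallest adjusted p) or else the 2 with the largest change; marker lists other than those of Purkinje and granule cells are given under other observations. Members and lists were chosen with earlier results of these data known. Some genes that these rules would name are not reported here.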

Additional observations from a re-analysis of the deposited data

Results flagged for a closer look

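In 1 of 24 groups of 5 values, a library stood apart from the other 4 by Dixon's test: Cbln2 in 12-month 304Q/304Q mice had 2.23 normalised counts (2 reads) in replicate 2 and 0 in the others. As the other 4 values were 0, any count above 0 in the remaining library would have been flagged. Chance flags about 1 in 20 groups of normally spread values, which counts this close to 0 are not.

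The change with age differed between the genotypes (interaction, adjusted p of at most 0.05) for Homer3 at −0.48 on the log2 scale. Among the Purkinje cell markers, it differed for 8 of 12, among them Pcp4 (−0.68), Pcp2 (−0.65), Gng13 (−0.59), Rgs8 (−0.49), Ppp1r17 (−0.38) and Slc1a6 (−0.26), and among the granule cell markers for Grm4 (−0.61). Of all genes, 1.95% passed this test. Without the 6 libraries with choroid plexus RNA, it differed for 4 of the 12 Purkinje cell markers.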

How the results depend on the processing

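With 1 library left out at a time, the number of members that passed of the 4 tested was 0 between genotypes at 2 months, 1 at 12 months, 1 to 2 with age in WT/WT mice (2 without replicate 1 of the 2-month or replicate 4 of the 12-month WT/WT mice), 1 to 2 with age in 304Q/304Q mice and 0 to 1 for the interaction. With surrogate variables, in DESeq2 or edgeR, the numbers were 1, 2, 2 and 4 in the first 4 comparisons. Without the libraries with choroid plexus RNA, a setting chosen after seeing the data, they were 0 throughout, where fewer mice were left. With age in WT/WT mice, 2 passed with the trend of GC content and length removed and 0 at the DEG size. With age in 304Q/304Q mice, 1 passed without a limit on low counts, with at least 50 counts in every library and at the DEG size, and 3 with the trend of GC content and length removed or with only the groups compared. DESeq2 called 1 for the interaction. For these counts the cause was not tested.

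Same replicate numbers did not pair the mice: 6 of 30 pairs had a correlation of deviations above 0.1 (range −0.32 to 0.55). With the replicate block, 2 members passed with age in WT/WT mice, Cbln1 (adjusted p = 0.044) and Cbln3. In 304Q/304Q mice, Cbln1 (adjusted p = 0.0478) passed with the block and Cbln3 (adjusted p = 0.0508) did not.

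Values near 0 changed sign. The interaction of Cbln1 was 0.10 with the GC trend removed and −0.073 to 0.054 with 1 library left out, the age change of Grid1 in WT/WT mice was 0.0053 without the choroid plexus libraries, and Grid2ip at 2 months was 0.010 (DESeq2) and 0.0060 (edgeR) with surrogate variables and −0.074 to 0.039 with 1 library left out. Relative to markers, the left-out ranges that crossed 0 were −0.062 to 0.092 (Cbln1, genotype at 2 months), −0.11 to 0.046 (Cbln1, age in WT/WT), −0.041 to 0.026 and −0.035 to 0.010 (Cbln3, age in WT/WT and 304Q/304Q) and −0.025 to 0.083 (Grid2ip, genotype at 2 months). With surrogate variables removed, r was −0.070 for Cbln1 and Grid1 and 0.0075 for Cbln1 and Grid2ip, and 0 of 6 relations passed, as also without replicate 1 of the 12-month WT/WT mice (0 to 1 with 1 library left out). Per length of the shortest coding transcript, the levels of Cbln1, Cbln3 and Grid2ip were 688, 1511 and 22.0 CPM per kb. Of the fold changes of single members, 567 kept their direction and call, 20 gained and 15 lost the call and 14 changed sign. Cbln2 and Cbln4 are limited by depth.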

Other observations

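Within the 12-month 304Q/304Q mice, Cbln1 and Grid2ip had opposite orders. Replicate 3 had the highest Cbln1 (16618 normalised counts) and the lowest Grid2ip (617), and replicate 5 the lowest Cbln1 (13049) and the highest Grid2ip (1063). This was noticed after the values were seen, rests on 5 mice and was not tested, and over all 20 mice r did not pass.

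Markers of other cell types were counted at 12 months, where 12.5% of all genes passed. In 304Q/304Q mice, 5 of 8 markers of inhibitory interneurons were lower than in WT/WT mice (median log2 fold change −0.27), 4 of 8 of myelinating oligodendrocytes were lower (−0.39), 2 of 8 of Bergmann glia and astrocytes were lower (−0.09) and 2 of 7 of microglia were higher (0.32). Of 6 endothelial markers, 1 was lower (−0.11), and of 3 unipolar brush cell markers, some of which other lists also hold, 2 were lower and 1 higher. The calls of microglia and endothelial markers fell to 0 with surrogate variables in DESeq2 and to 0 without the libraries with choroid plexus RNA, where 4 interneuron, 4 oligodendrocyte, 3 Bergmann glia and astrocyte and 2 unipolar brush cell markers passed. None of 2 tested markers of brainstem and nuclei neurons and none of 4 of the choroid plexus passed. Grid1 is known from interneurons and glia, and its part in these shifts was not tested.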
